A study of Homo sapiens with 2 samples.

Results

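The 10 genes described here mark colon epithelial identity: EPCAM, CDH1, CDX1, CDX2, VIL1, CDH17, LGR5, KRT8, KRT18 and KRT20. They were chosen by name, and all 10 were found by symbol among the 40205 genes listed, 19784 of them mRNAs. RNA came from RKO cells, an established, poorly differentiated human colorectal carcinoma line, after treatment with a control siRNA (siNC) or an siRNA against hnRNPU, a nuclear RNA- and DNA-binding protein. Each group was 1 library of this line, so differences have no replicate check and the design allows no test or p-value. Both groups share the line, the transfection and the Trizol extraction, and no untransfected cells were analysed here. Values are FPKM (fragments per kilobase of gene, scaled to library depth), a level that is corrected for gene length. The spacing of the low values put the depth of the control library at 31801650 reads and that of the knockdown library at 39807025. HNRNPU stood at 239 FPKM with the control siRNA and 75.4 FPKM with the hnRNPU siRNA, 31.5% of the control level.

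The colon epithelium is a single layer of cells that is renewed from stem cells at the crypt base. The homeobox factors CDX1 and CDX2 set the intestinal gene program, cadherins and EPCAM hold the cells together, keratin filaments support them, and villin builds the microvilli of the brush border. In poorly differentiated colorectal cancers parts of this program can be lost.

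In the control library 4 of the 10 genes reached 1 FPKM, the level called measured here: KRT18, EPCAM, CDX2 and KRT8. The same 4 did so in the knockdown library. CDH1, CDX1, CDH17, LGR5 and KRT20 were listed at 0 in both libraries, and VIL1 rested on 1 read in the knockdown library alone. For comparison, 51.7% of all mRNAs reached 1 FPKM in the control library and 30.5% were listed at 0 in both. Of the defining markers of the labelled colorectal tissue, only these 4 were thus measured. Between the libraries none of the 10 differed by 2-fold, and the 4 measured genes lay at 82.0% to 99.6% of their control level.

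**Figure D1:**
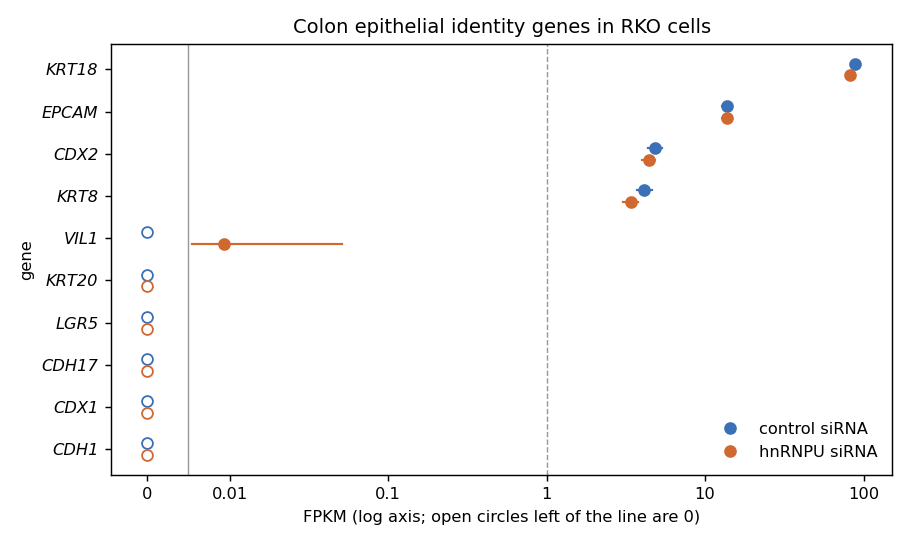
FPKM of the 10 genes (log axis) in the control siRNA library (blue) and the hnRNPU siRNA library (orange), 1 library each; lines are exact 95% Poisson intervals of the reads (the VIL1 line is cut off at the left), open circles are values of 0, and the dashed line marks 1 FPKM. KRT18, EPCAM, CDX2 and KRT8 lie right of the dashed line in both libraries and the other genes lie at or near 0.

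Among the intestinal transcription factors, CDX2 stood at 4.83 FPKM in the control library, on 361 reads (exact 95% Poisson interval 4.34 to 5.35 FPKM). In the knockdown library it stood at 4.41 FPKM on 413 reads. The gene lies on the minus strand of chromosome 13 (GRCh37 positions 28536205 to 28543505). Its control level ranked 7261 of the mRNA rows, above 63.3% of them. CDX1, its paralogue and partner in intestinal patterning, was listed at 0 in both libraries (chromosome 5, positions 149546344 to 149564121, plus strand). On a transcript of 1758 bases, the longest that GENCODE 29 gives for CDX1, 3 reads would have made 0.0537 FPKM with the control siRNA and 0.0429 with the hnRNPU siRNA. These are the limits that a count of 0 allows, for counting error only, and a shorter counted length would raise them in proportion. The levels of the 2 factors in RKO cells were thus far apart, with CDX2 well above the limit for CDX1.

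CDX2 and KRT20, the intestinal keratin gene that was at 0, are a measured and an undetected member whose promoter sequences can be set side by side. The 250 bases before the RefSeq gene start (GRCh38.p14, minus strand, 5′ to 3′) are shown with TTTAT and its reverse complement ATAAA in capitals, the AT-rich core that CDX factors are known to prefer. The CDX2 window is chr13:27969316-27969565 and the KRT20 window is chr17:40885243-40885492.
CDX2: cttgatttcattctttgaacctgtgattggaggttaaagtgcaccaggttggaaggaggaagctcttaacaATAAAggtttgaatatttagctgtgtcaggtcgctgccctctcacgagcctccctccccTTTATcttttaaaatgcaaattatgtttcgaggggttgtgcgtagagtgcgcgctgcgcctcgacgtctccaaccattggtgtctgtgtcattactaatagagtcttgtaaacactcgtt
KRT20: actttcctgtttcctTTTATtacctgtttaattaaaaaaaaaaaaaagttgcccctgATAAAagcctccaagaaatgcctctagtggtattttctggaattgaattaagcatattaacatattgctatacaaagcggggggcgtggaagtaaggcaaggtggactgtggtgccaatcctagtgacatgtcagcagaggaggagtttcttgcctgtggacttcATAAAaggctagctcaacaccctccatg

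The word occurred 2 times in the CDX2 window and 3 times in the KRT20 window, and 32.7% of 35116 RefSeq promoter windows of this length held it on either strand. CACCTG, the E-box letters that ZEB factors are known to bind, was in neither window and in 17.5% of all windows. The CDX2 window held 10 CG dinucleotides and the KRT20 window 2, against a median of 11 over all windows. G and C made up 45.2% and 41.2% of the bases against a median of 58.0% over all windows. These matches describe the letters and say nothing of binding. Of the 10 genes, 3 had a RefSeq promoter sequence to match: CDX2, KRT20 and KRT8. The KRT8 window, which is not printed, held neither TTTAT nor CACCTG on either strand, with 1 CG dinucleotide and 50.4% G and C. Whether the number of CG dinucleotides bears on the level of these genes was not tested, and 3 windows are too few to relate them. Where the KRT8 window lies in the listed KRT8 span, which is on GRCh37, was not checked. Whether the RefSeq starts used here are the ones active in RKO cells was not tested.

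EPCAM, a homophilic adhesion molecule of simple epithelia, stood at 13.8 FPKM in the control library on 753 reads (interval 12.8 to 14.8). In the knockdown library it stood at 13.7 FPKM on 939 reads (interval 12.9 to 14.6). Its level differed less than any other measured gene of the 10, and its control value exceeded 80.2% of mRNA rows. The gene lies on the plus strand of chromosome 2 (GRCh37 positions 47596287 to 47614167).

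CDH1, which encodes E-cadherin, the calcium-dependent adhesion receptor of adherens junctions, was listed at 0 in both libraries. With a longest transcript of 4889 bases, the limit from 3 reads was 0.0193 FPKM with the control siRNA and 0.0154 with the hnRNPU siRNA. CDH17, the liver-intestine cadherin, was also at 0 in both, with limits of 0.0255 and 0.0204 FPKM on 3693 bases. Both genes were thus undetected at a depth that would have shown far lower levels than that of EPCAM. CDH1 spans positions 68771128 to 68869445 of chromosome 16 (plus strand) and CDH17 positions 95139394 to 95229531 of chromosome 8 (minus strand). Of the 23 genes with a CDH number in their symbol, a family looked at after the values had been seen, CDH24 alone reached 1 FPKM, at 1.66 FPKM with the control siRNA and 1.27 with the hnRNPU siRNA, and 18 were at 0 in both.

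VIL1, the actin-bundling villin of microvilli, was at 0 with the control siRNA and at 0.00918 FPKM with the hnRNPU siRNA, which is 1 read. The limit that a count of 0 allows was 0.0345 FPKM in the control library on the recovered length of 2738 bases, so the 2 libraries cannot be told apart for VIL1. LGR5, the R-spondin receptor that marks crypt base stem cells, was at 0 in both libraries, with limits of 0.0205 and 0.0163 FPKM on 4611 bases. VIL1 lies on chromosome 2 (positions 219283838 to 219314248, plus strand) and LGR5 on chromosome 12 (positions 71833550 to 71980090, plus strand).

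The keratins of simple epithelia were the most and the least abundant of the measured genes. Keratin 18 (type I) and keratin 8 (type II) pair in equal amounts to form filaments. KRT18 stood at 88.1 FPKM with the control siRNA and 81.6 with the hnRNPU siRNA, and its control level ranked 598 among mRNA rows. KRT8 stood at 4.15 FPKM with the control siRNA and 3.40 with the hnRNPU siRNA, rank 7685. Per length, the KRT18 level was thus 21.2 times that of KRT8 in the control library and 24.0 times in the knockdown library. The genes lie next to each other on chromosome 12, KRT8 at positions 53290971 to 53343650 on the minus strand and KRT18 at positions 53342655 to 53346685 on the plus strand. Their listed spans overlap by 996 bases, and no source used here states a strand rule for the counting, so reads from this stretch may be assigned to either gene.

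Both keratins have many processed pseudogenes. The reads recovered for both genes came out fractional: 4108.5 and 4766 for KRT18, about 340 and 349 for KRT8. Reads shared out among several matching sequences would give such fractions. Of the pseudogene values above 0, 20 of 22 for KRT8 and 19 of 23 for KRT18 were whole reads. These values do not show how the reads of KRT8 and KRT18 themselves were assigned. Whether reads were shared out was not tested. The values of both genes are therefore uncertain beyond counting error. The 48 listed KRT8 pseudogenes summed to 2.95 FPKM with the control siRNA and 5.36 with the hnRNPU siRNA. The 64 KRT18 pseudogenes summed to 0.690 and 0.849 FPKM. If every KRT8 pseudogene value were added to KRT8, KRT18 would still be 12.4 times as high in the control library and 9.32 times in the knockdown library. With these values added, KRT8 would stand at 7.10 FPKM with the control siRNA and 8.76 with the hnRNPU siRNA, higher in the knockdown library, where KRT8 alone was lower. Reads dropped before counting would not appear in these sums, and their part in the difference was not tested. KRT8P12 on chromosome 3 carried most of the pseudogene difference, at 1.36 FPKM on 73 reads in the control library and 3.62 FPKM on 244 reads in the knockdown library. Its FPKM ratio had an exact 95% Clopper-Pearson interval of 2.05 to 3.52, while KPNA4, the nearest listed mRNA at 2.19 kb, stood at 15.8 and 15.5 FPKM. KRT8P12 was picked after its value was seen.

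**Figure D2:**
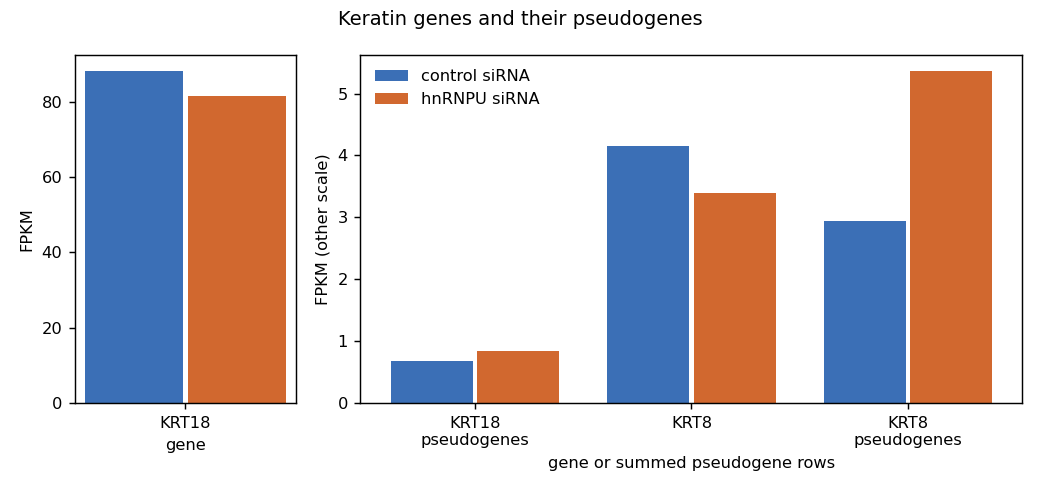
FPKM (bars, from 0) of KRT18 (left panel) and, on another scale, of the summed KRT18 pseudogenes, KRT8 and the summed KRT8 pseudogenes (right panel), in the control siRNA library (blue) and the hnRNPU siRNA library (orange), 1 library each. KRT18 stands above 80 FPKM in both libraries while KRT8 stands at 4.15 and 3.40, and the KRT8 pseudogenes sum to 2.95 and 5.36.

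KRT20, the type I keratin of differentiated intestinal cells, was listed at 0 in both libraries, with limits of 0.0543 and 0.0434 FPKM on 1737 bases. Its row is placed on an alternate scaffold and not on a chromosome, as is that of KRT23. Of the 21 mRNA rows on this scaffold 5 were above 0, and the highest, KRTAP2-3, had 0.221 FPKM in the control library. Over all scaffolds 59.4% of mRNA rows were above 0 in at least 1 library, against 70.3% of those on chromosomes. Whether reads of KRT20 were lost through a second genomic copy was not tested. Across the keratin family as a whole, looked at after the values had been seen, KRT18, KRT10 and KRT8 alone of 55 mRNA rows reached 1 FPKM in the control library, and 45 were at 0 in both libraries. KRT10, a type I keratin best known from epidermis, stood at 5.60 and 4.90 FPKM.

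In the comparison of the libraries, the log2 ratio of (FPKM + 1), knockdown over control, was -0.23 for KRT8, -0.11 for KRT18, -0.11 for CDX2 and -0.01 for EPCAM. The added 1 FPKM pulls the ratios of low genes toward 0. All 4 were below 0, except that EPCAM stood at 0.02 when both libraries were rescaled to the same FPKM sum, and that the direction for KRT8 turned with its pseudogenes added, as given above. Of 10184 mRNAs averaging 1 FPKM or more, 49.6% were below 0. The median of the 4 was -0.11 against 0.00 over those mRNAs, whose middle 50% ran from -0.19 to 0.20, so 3 of the 4 lay within that middle range and KRT8 just outside it, above 21.5% of mRNAs. Of the 10 genes, EPCAM and KRT18 reached 5 FPKM in 1 or both libraries, and 0 of these 2 differed by 2-fold or more, against 1.07% of 7958 genes (0.314% higher and 0.754% lower).

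The counting interval of the FPKM ratio included 1 for EPCAM and CDX2 and lay below 1 for the keratins. The ratio, knockdown over control, was 0.996 for EPCAM (exact 95% Clopper-Pearson interval 0.904 to 1.10) and 0.914 for CDX2 (0.792 to 1.06). It was 0.927 for KRT18 (0.889 to 0.967) and 0.820 for KRT8 (0.704 to 0.955). The intervals of the 2 keratins were computed from whole reads after dropping the fractions and are approximate. They leave out the pseudogene reads, and the KRT8 interval therefore does not fix its direction. Variation between cultures lies outside all these intervals, and 1 library per group cannot show it. In bulk RNA, fewer cells with a transcript and less of it per cell cannot be told apart.

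**Figure D3:**
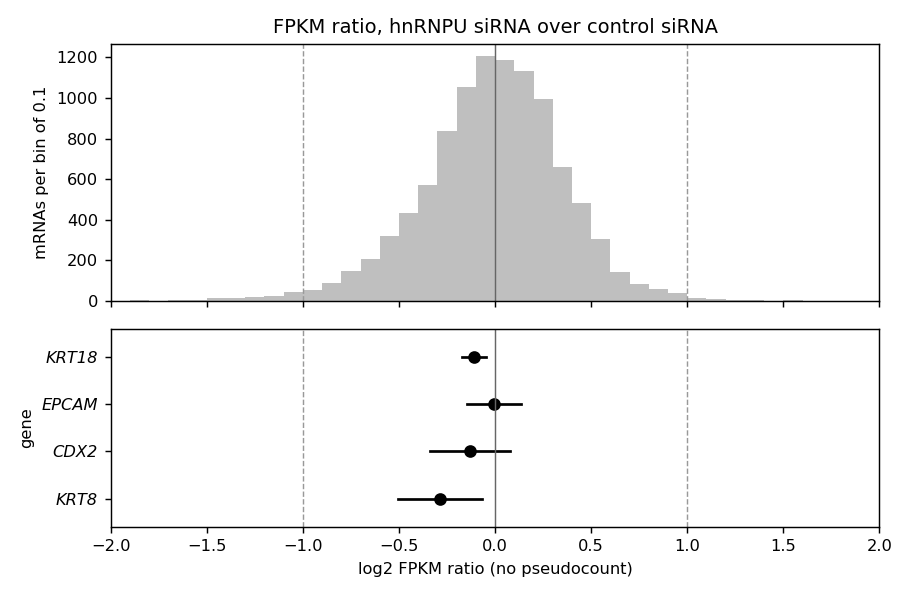
Upper panel, number of mRNAs averaging 1 FPKM or more in each bin of the log2 FPKM ratio (hnRNPU siRNA over control siRNA, no pseudocount). Lower panel, the same ratio for the 4 measured genes with exact 95% counting intervals. All 4 points lie between 0 and -0.5, far inside the dashed lines at 2-fold, and the intervals of EPCAM and CDX2 cross 0.

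The undetected and the measured genes did not follow their neighbours in a single way. VIL1 lay 0.726 kb from USP37, a deubiquitinase gene at 4.25 FPKM in the control library, and 13.2 kb from CTDSP1, a phosphatase gene at 7.52 FPKM. CDH1 lay 8.01 kb from TANGO6 (6.02 FPKM) on one side and 38.2 kb from CDH3, the P-cadherin gene (0.0294 FPKM), on the other. LGR5 was flanked by ZFC3H1 at 8.43 FPKM and by TSPAN8 at 0. Both flanking mRNAs of CDX1, PDGFRB and SLC6A7, were at 0. CDX2, by contrast, was itself measured between PDX1 at 0.953 FPKM and URAD at 0. Flanking genes are the nearest listed mRNAs whose spans do not overlap the gene.

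A further 16 lists, some of which share genes, put the 10 genes beside the rest of the epithelial program and beside other cell types. Of 194 genes in all lists, the 10 included, 51 were measured in the control library and 95 were at 0 in both. Over all mRNAs these shares were 51.7% and 30.5%, and they also stand beside the list counts that follow. Of the 25 that reached 5 FPKM in 1 or both libraries, 0 differed by 2-fold or more, against the 1.07% of all genes given above. As for KRT8 and KRT18, recovered reads were fractional for KRT10, LGR4, KLF4, EZR, CLDN12, SPINT1, ZEB1 and PDX1 among the genes named here, whose values are less certain for it. No read number could be recovered for BMI1, ESRP2 and SNAI1. For CA2 and GATA4 the fraction reduced to lengths of 98 and 27 bases, and for EZR, PDX1 and KLF4 to 67, 83 and 419 bases. These lengths lie far under their transcripts, so that only the ratio of their reads is known. The counting error of these genes, as of BMI1, ESRP2 and SNAI1, is unknown. Genes of mature cell types were mostly at or near 0. In the list of enterocyte and colonocyte genes 17 of 21 were at 0 in both libraries, and CA2, a carbonic anhydrase, alone was measured, at 5.45 FPKM with the control siRNA and 3.33 with the hnRNPU siRNA. Goblet and secretory genes reached at most 0.0616 FPKM (MUC12, a membrane mucin), with 9 of 14 at 0 in both. Enteroendocrine genes reached at most 0.310 FPKM (PYY, a gut hormone), with 5 of 8 at 0 in both.

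Of 15 crypt stem and progenitor genes, 8 were measured with the control siRNA and 6 with the hnRNPU siRNA, although LGR5 was at 0. The control share is close to the 51.7% of all mRNAs given above. ASCL2, OLFM4, PROM1 and TNFRSF19 were at 0 in both libraries. SMOC2 and RNF43 each rested on 1 read in 1 library, and SOX9 stood at 0.152 FPKM with the control siRNA and 0.0830 with the hnRNPU siRNA. CD44, a hyaluronan receptor, stood at 34.9 and 25.5 FPKM in the control and knockdown libraries, BMI1, a polycomb subunit, at 22.7 and 29.3, and MSI1, an RNA-binding protein of progenitors, at 11.1 and 11.5. LGR4, the widely expressed relative of LGR5, stood at 1.46 and 0.814 FPKM. Of the 7 averaging 1 FPKM or more, 3 had a log2 ratio above 0 and 4 below, with a median of -0.14, and 0 lay at 0.5 or more or at -0.5 or less. Of all mRNAs with such a mean, 50.4% were above 0, 4.62% lay at 0.5 or more and 5.76% at -0.5 or less.

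Of 19 gut transcription factors 7 were measured in the control library and 9 were at 0 in both. HNF4G, a nuclear receptor of enterocytes, stood at 4.63 and 5.16 FPKM, and GATA4, an endoderm factor, at 2.33 and 2.79 on an unknown number of reads. KLF4, which favours differentiation, stood at 1.97 and 0.882 FPKM (log2 ratio -0.66), and KLF5, which favours crypt proliferation, at 1.76 and 1.07 (-0.41). The median of the 6 averaging 1 FPKM or more was -0.21. CDX2, at 4.83 FPKM in the control library, stood above each of these 19 factors there. Its Poisson interval (4.34 to 5.35 FPKM) overlapped that of HNF4G (4.27 to 5.02). In the knockdown library HNF4G, at 5.16 FPKM, stood above CDX2, at 4.41.

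Catenins, the cytoplasmic partners of E-cadherin, were measured although CDH1 was at 0. CTNNA1, the alpha-catenin that links cadherins to actin, stood at 96.9 FPKM with the control siRNA and 80.0 with the hnRNPU siRNA. CTNNB1, the beta-catenin gene, stood at 42.1 and 44.4 FPKM, and DSG2, a desmosomal cadherin, at 27.4 and 24.3. In the list of adherens junction and desmosome genes 9 of 14 were measured in both libraries, 4 of them above 0 and 5 below, with a median log2 ratio of -0.05. JUP, the plakoglobin gene, was at 0 on a scaffold where 15 of 19 mRNA rows were above 0. Among brush border genes, 4 of 12 were measured although VIL1 was not. EZR, the ezrin gene, stood at 114 and 124 FPKM, and EPS8, an actin-capping protein of microvilli, at 5.72 and 3.01 (log2 ratio -0.75).

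**Figure D4:**
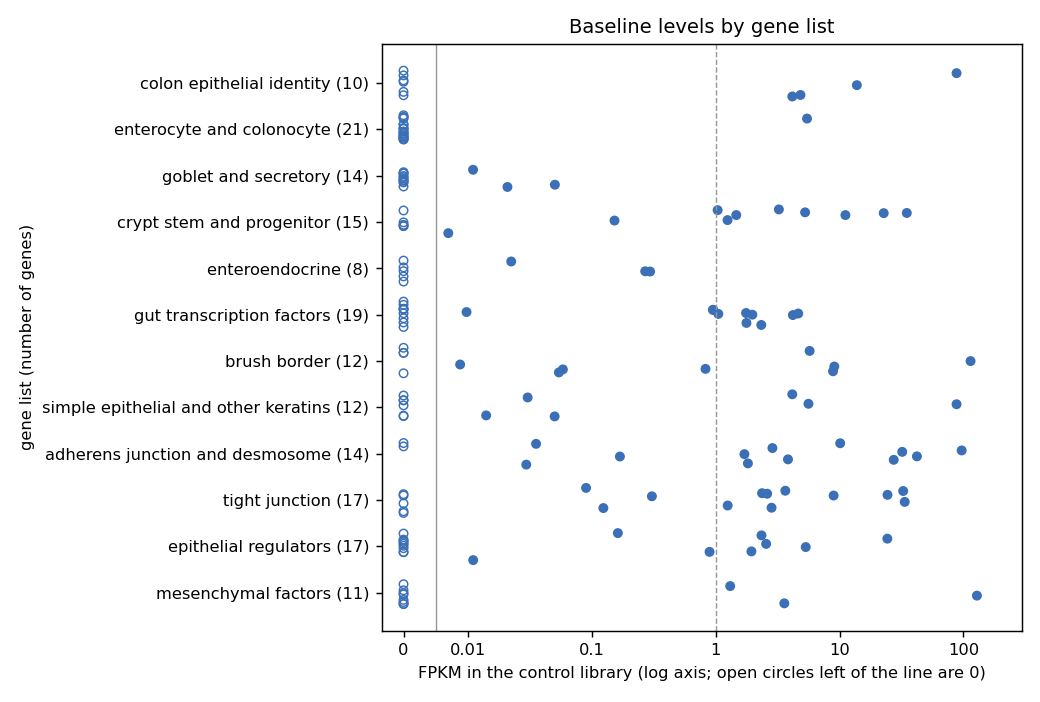
FPKM in the control library (log axis) of each gene in 12 lists, the 10 genes at the top; each circle is 1 gene, open circles are values of 0, and the dashed line marks 1 FPKM. The enterocyte, goblet and enteroendocrine lists lie almost wholly at or near 0. At or above the dashed line lie 9 of 14 adherens junction and desmosome genes and 9 of 17 tight junction genes. Of all mRNAs 51.7% lie there, so the tight junction share is close to that of all mRNAs.

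Tight junction genes were lower in the knockdown library more often than higher. Of 9 averaging 1 FPKM or more, 7 had a log2 ratio below 0 and 3 lay at -0.5 or less, against 49.6% and 5.76% of mRNAs, with a median of -0.23. The 2 counts were 6 and 2 after rescaling to the same FPKM sum. CGN, the cingulin gene, stood at 2.60 and 1.40 FPKM (log2 ratio -0.59), and CLDN12, a claudin, at 33.6 and 23.1 (-0.52). TJP1, the ZO-1 gene, stood at 24.4 and 24.0. The classical epithelial claudins CLDN1, CLDN3, CLDN4 and CLDN7 reached at most 0.123 FPKM. Among epithelial regulators 5 of 17 were measured in the control library and 9 were at 0 in both. SPINT1, a protease inhibitor, stood at 24.3 and 28.7 FPKM, and ERBB3, a receptor of the EGF receptor family, at 1.94 and 0.964 (log2 ratio -0.58). The median of this list was -0.18, and 0.17 over the members averaging 5 FPKM or more.

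ZEB1, a transcription factor known to repress CDH1, stood at 129 FPKM with the control siRNA and 114 with the hnRNPU siRNA, above all 10 epithelial identity genes. The other mesenchymal factors were lower than ZEB1. VIM, the vimentin gene, was measured at 3.58 and 3.05 FPKM, close to KRT8 at 4.15 and 3.40. In both libraries 7 of the 11 genes, ZEB2, TWIST1 and FN1 among them, were at 0. SNAI1, another repressor of CDH1, was listed at 1.31 and 1.44 FPKM, with no read number behind the values. Whether these factors bear on the level of CDH1 was not tested. Markers of fibroblasts and muscle, endothelium, blood, nerve and liver, 27 in all, were at 0 in both libraries in 19 cases and reached at most 0.196 FPKM (SYP, a synaptic vesicle gene).

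**Figure D5:**
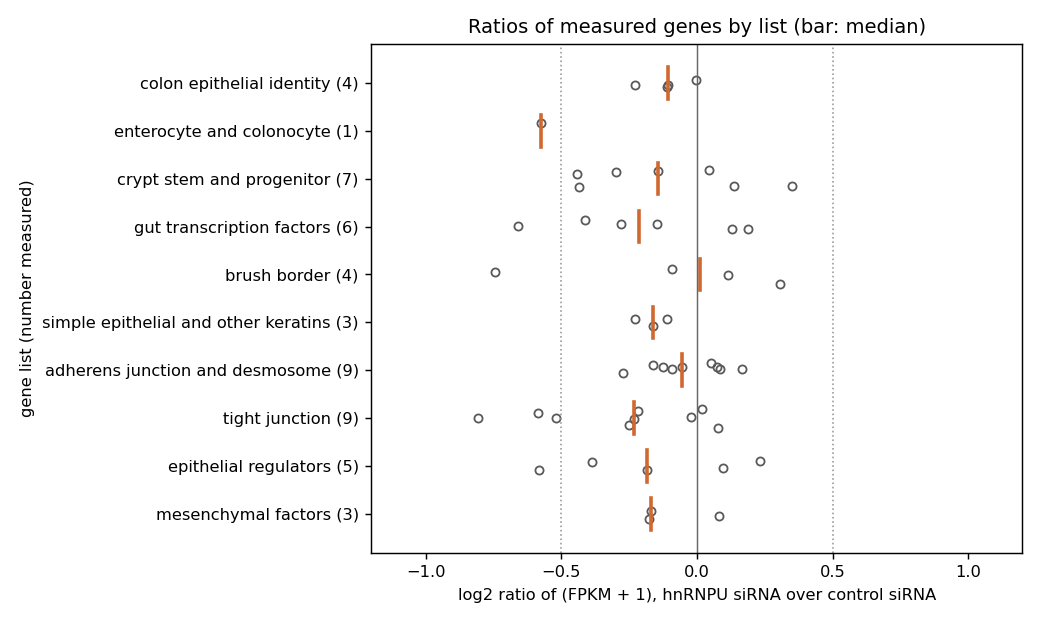
Log2 ratio of (FPKM + 1), hnRNPU siRNA over control siRNA, of genes averaging 1 FPKM or more in 10 lists (circles, 1 gene each) with the median of each list (orange bar); dotted lines mark -0.5 and 0.5. The 4 measured epithelial identity genes lie between -0.23 and -0.01, and the median of the tight junction list lies at -0.23.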

How the data were processed

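Per the labels' protocols, Trizol was used to isolate total RNA, and library preparation followed a Lifetech procedure. The deposited table holds 1 FPKM value per gene and library, computed by the authors. The submitters' processing notes name Bowtie and GRCh37. For the annotation, the counting program, the treatment of reads that match several places and the use of strand, the sources used here give no method. Groups came from the treatment labels. The genes and lists were chosen with earlier results of these data known.

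Depth was taken from the most frequent value that 1 read adds to FPKM times span, over noncoding genes spanning under 1000 bases. Within a tolerance of 1e-06, whole reads were then found for 55.9% of such genes with the control siRNA and for 56.4% with the hnRNPU siRNA. Each FPKM value was written as a fraction of reads over length, with the length held to at most the longest GENCODE 29 transcript. Any factor that reads and length share cancels out, so read numbers are approximate. Intervals (95%, SciPy 1.17.1) and limits from 3 reads cover counting error only. Steps were tested on simulated libraries of whole reads, which do not cover genes whose recovered reads were fractional. Ratios are log2 of (FPKM + 1), with no further scaling. List genes were named by rule: the 3 highest control levels and the 2 highest and 2 lowest ratios of each list. Some genes that the rule names are left out here. Of the others, those that carry a list's description are given; flanking genes and other genes outside the rule were picked after their values were seen. Alternatives were other pseudocounts, rescalings and minimum levels. No search for genes of like pattern was made, since 2 libraries give 1 ratio per gene.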

Additional observations from a re-analysis of the deposited data

How the results depend on the processing

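No paired analysis was possible because there was 1 library per treatment. All alternatives were planned. The ratios of the 4 measured genes moved by less than their counting error in all 24 comparisons with another pseudocount or rescaling, although that of EPCAM became 0.02 with equal FPKM sums, and none of the 10 reached a 2-fold difference (a count of 0) at any minimum level, pseudocount and rescaling tried. The 3 rescalings shifted every ratio by 0.03, -0.04 and -0.01 on the log2 scale. Among members averaging 5 FPKM or more, the median log2 ratios changed sign to 0.04 for crypt stem and progenitor genes, 0.05 for adherens junction and desmosome genes and 0.17 for epithelial regulators; fewer genes enter there. With 5 FPKM as the level called measured, 2 of the 10 genes reached it in each library. Over the whole table, the number of genes 2-fold or more higher, 25, was 9 at a pseudocount of 5 FPKM, 13 at a minimum of 20 FPKM and 51 at a minimum of 1 FPKM or with none. The number 2-fold or more lower, 60, was 24 at a pseudocount of 5 FPKM and 30 at a minimum of 20 FPKM. A larger pseudocount shrinks all ratios, and the minimum sets how many genes enter. Depth limits the genes at 0 to the levels given for them. KRT8, KRT18 and KRT20 may be limited further by similar sequences elsewhere in the genome, which was not tested.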

Other observations

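In several families of epithelial regulators 1 member was measured and a close relative was listed at 0 in both libraries. These pairs were picked after the values had been seen and have no test. ESRP2, a splicing regulator of epithelial cells, stood at 5.33 FPKM with the control siRNA and 5.77 with the hnRNPU siRNA, and ESRP1 was at 0. GRHL1, a grainyhead-like factor of epithelial barriers, stood at 2.55 and 1.72 FPKM, and GRHL2 was at 0. HNF4G stood at 4.63 and 5.16 FPKM with HNF4A at 0, and LGR4 at 1.46 and 0.814 FPKM with LGR5 and LGR6 at 0. CDX2 with CDX1 and ZEB1 with ZEB2 had the same form.

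Other families that mark colon epithelium were low. Of 18 mucin genes 0 reached 1 FPKM in the control library; MUC1, a membrane mucin, was the highest at 0.363 FPKM with the control siRNA and 0.621 with the hnRNPU siRNA. Of 12 genes with a CEACAM number 11 were at 0 in both libraries, CEACAM5 among them, and CEACAM19 stood at 0.727 and 0.732 FPKM. Of 23 claudins CLDN12 and CLDN15 reached 1 FPKM, CLDN15 at 1.21 and 1.05 FPKM.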
